A study of Rattus norvegicus with 36 samples.

Results

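Across 3 housing conditions, 6 genes had fewer transcripts in the striatum of BACHD (TG) rats than in wildtype (WT) rats, and their levels are described here animal by animal. The set consists of ENSRNOG00000004179, ENSRNOG00000005335, ENSRNOG00000014296, ENSRNOG00000016306, ENSRNOG00000019630 and ENSRNOG00000032490, which is 6 of the 23965 genes in the count table. They were chosen by their TG/WT log2 fold change and its adjusted p, which passed the thresholds for a differentially expressed gene in the negative direction in all 3 comparisons of TG with WT rats. The size of that difference is therefore a property of the choice and is given as a description, without a p-value. The count table lists genes by Ensembl identifier and the tables at hand pair none of the 6 identifiers with a symbol, so the function of each gene, its promoter and the rat markers of striatal cell types were not analysed here.

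Poly(A)-selected RNA was measured in the striatum of 36 male Sprague Dawley rats at 2 months of age, with 6 rats in each of 6 groups. WT_SE and TG_SE rats were kept in the standard environment, WT_EE and TG_EE rats in an enriched environment with larger cages, bigger groups and changing toys after weaning, and WT_ELS and TG_ELS rats had early life stress in the form of daily separation from the mother before weaning. TG rats carry a bacterial artificial chromosome with the whole human *HTT* locus, its flanking regulatory sequence and an expanded repeat in exon 1, in addition to their own *Htt* gene, and come from 1 transgenic line bred from heterozygous males and wildtype females. Whole litters were allocated to an environment, and the labels do not tie rats to litters, so rats of a group may be littermates and tests between environments may give p-values that are too small. The transgene is driven by its own human regulatory sequence, and its transcript was not analysed here, so the transgene was not checked in each library.

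Huntington disease is caused by an expanded CAG repeat in *HTT*, which lengthens a glutamine stretch in the huntingtin protein. The striatum is the most affected region, and its medium spiny projection neurons are the most vulnerable cells. Lower levels of many neuronal transcripts in the striatum are a well-known feature of the disease and its animal models and can precede the death of neurons. In bulk tissue such as this, fewer cells of one type and less RNA per cell cannot be told apart.

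The 36 libraries held between 9895073 and 19284439 counts on genes, and their TMM scaling factors lay between 0.942 and 1.072. All 6 genes were among the 12657 genes tested, whose raw counts averaged 50 or more. Levels below are normalized counts, meaning raw counts divided by the scaled library size and brought to the mean library size, and they can be compared between rats for a gene but not between genes, whose lengths were not used. By their numbers in the labels the libraries form 6 runs of 6 neighbours, in which every group has 1 rat, so that runs are balanced over genotype and environment.

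The largest losses were those of ENSRNOG00000004179 and ENSRNOG00000014296, whose mean level in TG rats was between 25.5% and 34.2% of that in WT rats in every environment. In SE, ENSRNOG00000004179 had a median of 112.9 normalized counts in WT rats (95.75 to 146.9) and 31.69 in TG rats (19.04 to 56). In EE, ENSRNOG00000004179 had medians of 104.2 in WT rats (80.89 to 227.6) and 33.02 in TG rats (15.69 to 49.42). In ELS, ENSRNOG00000004179 had medians of 137.4 in WT rats (119.8 to 171.8) and 43.22 in TG rats (20.7 to 82.09). No TG rat reached the lowest WT rat of its own environment, and the highest TG rat of all, in ELS, lay just above the lowest WT rat of all, in EE. The mean loss of ENSRNOG00000004179 was 68.9% in SE, 73.8% in EE and 67.1% in ELS. Its raw counts in TG rats were as low as 14, so counting error is larger in TG than in WT rats. On the log2 scale counting alone would give an SD of 0.27 in TG and 0.13 in WT rats, beside full SDs of 0.64 and 0.34.

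In SE, ENSRNOG00000014296 had a median of 121.7 normalized counts in WT rats (103.3 to 196.2) and 43.42 in TG rats (24.98 to 52.97). In EE, ENSRNOG00000014296 had medians of 122.5 in WT rats (76.26 to 181.3) and 33.44 in TG rats (24.71 to 39.13). In ELS, ENSRNOG00000014296 had medians of 109.9 in WT rats (66.41 to 198.7) and 41.49 in TG rats (20.7 to 65.19). All 18 TG rats lay below all 18 WT rats, although in ELS the nearest rats of both genotypes were almost level, at 65.19 and 66.41. The loss of the mean was 68.5% in SE, 74.5% in EE and 65.8% in ELS. WT rats varied widely in this gene, with a coefficient of variation between 26.5% and 38.6% in the 3 WT groups.

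ENSRNOG00000019630 showed an intermediate loss, with TG means at 59.3% of WT in SE, 66.8% in EE and 63.7% in ELS. In SE, ENSRNOG00000019630 had a median of 268.8 normalized counts in WT rats (234.9 to 318.5) and 164.8 in TG rats (126.3 to 189.2). In EE, ENSRNOG00000019630 had medians of 269.2 in WT rats (231.3 to 296.1) and 180.8 in TG rats (148.9 to 205.6). In ELS, ENSRNOG00000019630 had medians of 262.7 in WT rats (239.3 to 277.3) and 163.7 in TG rats (153.7 to 190.5). As with ENSRNOG00000014296, all 18 TG rats lay below all 18 WT rats, here with a clear gap between the highest TG rat at 205.6 and the lowest WT rat at 231.3. The coefficient of variation was 4.94% in WT_ELS and 7.84% in TG_ELS rats and between 10.51% and 15.11% in the other 4 groups.

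By group means, ENSRNOG00000016306 was lost to nearly the same extent in each environment. TG means were at 73.2% of WT in SE, 72.7% in EE and 71.9% in ELS. In the fit described below, its TG/WT log2 fold changes were -0.46 in SE, -0.38 in EE and -0.55 in ELS. In SE, ENSRNOG00000016306 had a median of 689.3 normalized counts in WT rats (629.5 to 795.8) and 537.3 in TG rats (361.7 to 612.4). In EE, ENSRNOG00000016306 had medians of 714.3 in WT rats (602.4 to 855.7) and 516.9 in TG rats (489.7 to 550.4). In ELS, ENSRNOG00000016306 had medians of 670 in WT rats (595.2 to 818.6) and 502.7 in TG rats (398.6 to 587.9). The genotypes did not overlap within an environment, but they came close in SE and ELS, and over all environments the highest TG rat passed the lowest WT rats.

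For the remaining 2 genes, ENSRNOG00000005335 and ENSRNOG00000032490, the genotypes overlapped in SE and ELS and were separate in EE. In SE, ENSRNOG00000005335 had a median of 315.3 normalized counts in WT rats (257.9 to 374.1) and 232.6 in TG rats (215.3 to 298.6). In EE, ENSRNOG00000005335 had medians of 298.1 in WT rats (281.3 to 406.2) and 238.7 in TG rats (212.9 to 245.5). In ELS, ENSRNOG00000005335 had medians of 304.2 in WT rats (229 to 401.9) and 215.2 in TG rats (165.1 to 325.6). In ELS the highest TG rat stood above 4 of the 6 WT rats. The loss of the mean was 21% in SE, 26.7% in EE and 26.8% in ELS.

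In SE, ENSRNOG00000032490 had a median of 174.3 normalized counts in WT rats (129.9 to 209.9) and 150.7 in TG rats (113 to 167.9). In EE, ENSRNOG00000032490 had medians of 179.6 in WT rats (150.8 to 275.6) and 124.9 in TG rats (99.1 to 149.9). In ELS, ENSRNOG00000032490 had medians of 171.5 in WT rats (109.9 to 204.4) and 127.3 in TG rats (79.83 to 183.3). Only 1 of 6 TG_SE rats and 2 of 6 TG_ELS rats lay below the lowest WT rat of their environment, and in EE the groups were separated by the narrow step from 149.9 to 150.8. The loss of the mean was 15.1% in SE, 37.5% in EE and 20.4% in ELS, by group means the widest range between environments among the 6 genes. In the fit described below, the TG/WT log2 fold changes of ENSRNOG00000032490 were -0.53, -0.46 and -0.58, the narrowest range of the 6.

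**Figure D1:**
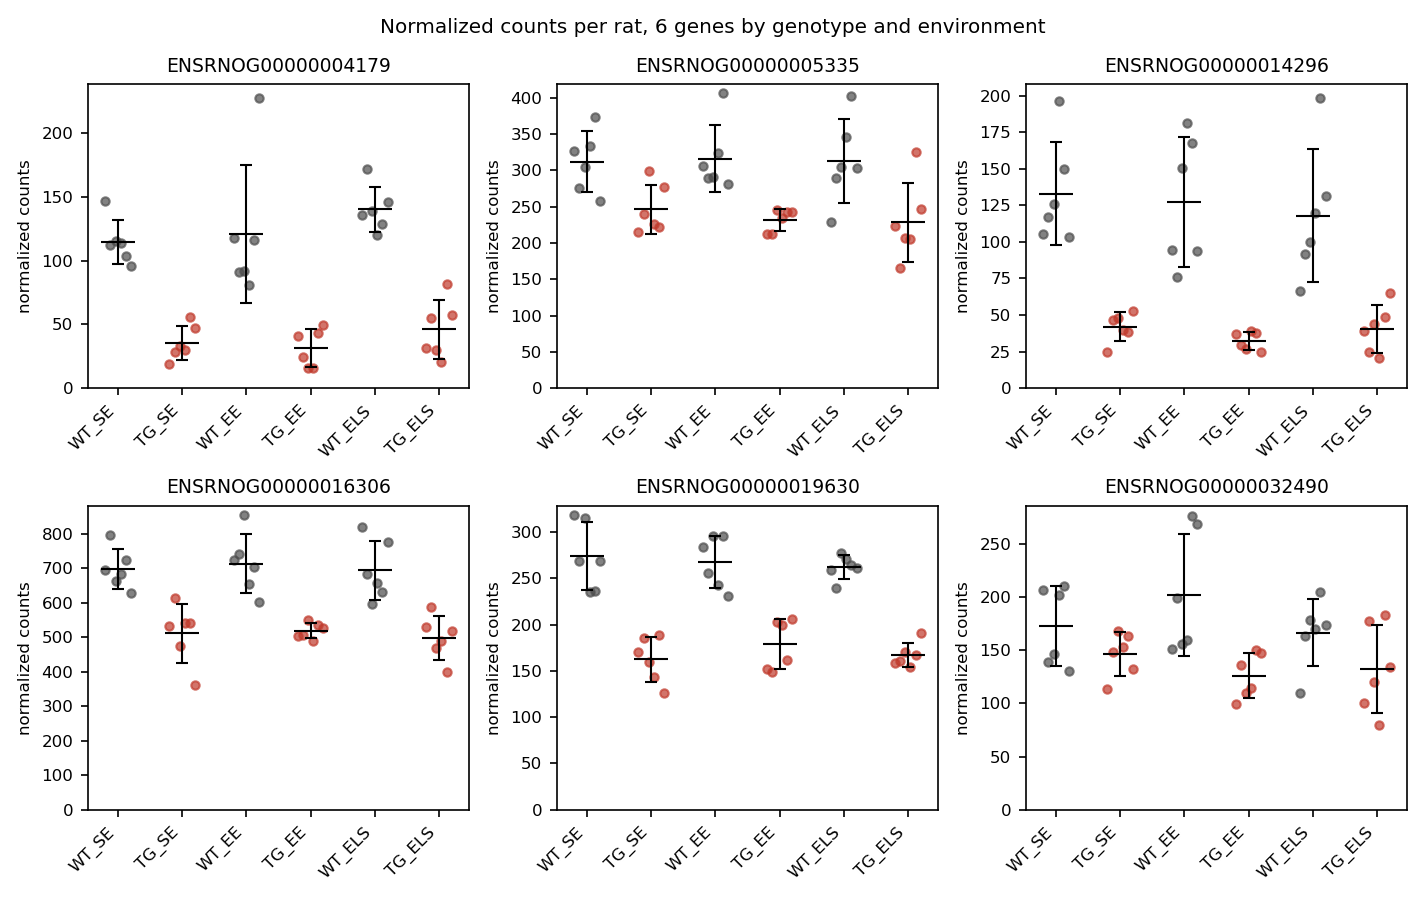
Normalized counts (vertical axis, linear and starting at 0) of each gene in every rat, for the 6 groups along the horizontal axis. Each point is 1 rat, WT in grey and TG in red, the wide black bar is the mean and the error bar the SD of 6 rats. The red points of ENSRNOG00000004179, ENSRNOG00000014296 and ENSRNOG00000019630 lie well below most grey points, whereas those of ENSRNOG00000005335 and ENSRNOG00000032490 overlap with them in SE and ELS.

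The groups did not overlap for 4 of the 6 genes in SE, 6 in EE and 4 in ELS. Over all 12657 genes, every TG rat lay below every WT rat for 0.182% in SE, 0.3% in EE and 0.213% in ELS, and in each of the 3 environments for 0.0474%. That last share stands for 6 genes, 4 of which are members of the set, namely ENSRNOG00000004179, ENSRNOG00000014296, ENSRNOG00000016306 and ENSRNOG00000019630. All 18 TG rats lay below all 18 WT rats for 0.0237% of genes, which is 3 genes, and 2 of them are ENSRNOG00000014296 and ENSRNOG00000019630. Since low levels in TG rats were the ground for choosing the genes, nothing is read from these shares.

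Seen rat by rat, 9 of the 18 TG rats lay below the lowest WT rat of their environment for all 6 genes, 5 rats for 5 genes and 4 rats for 4 genes. For 16 of the 18 TG rats, all 6 genes were below the WT median of their environment. The libraries can also be read in 18 pairs of consecutive numbers, each with a WT and a TG rat of the same environment. In these pairs the TG rat had the lower level in 18 of 18 cases for ENSRNOG00000004179, ENSRNOG00000014296, ENSRNOG00000016306 and ENSRNOG00000019630, in 17 for ENSRNOG00000005335 and in 14 for ENSRNOG00000032490. The median log2 ratio of TG to WT over the pairs was -1.90 for both ENSRNOG00000004179 and ENSRNOG00000014296, -0.71 for ENSRNOG00000019630, and between -0.46 and -0.42 for the other 3 genes. Counts by rat and by pair follow from the choice of the genes and are not set beside counts over all genes. Nothing is read from them.

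The model across all genes, an edgeR quasi-likelihood fit with 1 mean per group and 5 surrogate variables estimated from the counts, gave the differences that had chosen the set. Of the variance of surrogate variables 1 to 5, 29.3%, 3.72%, 31.5%, 19.8% and 15.5% lay between the 6 groups. How far this shaped the fitted differences was not tested. The thresholds for a call were an adjusted p no higher than 0.1 and a log2 fold change no smaller than 0.3 in size. Of all genes tested, 0.158% were called lower in TG_SE than in WT_SE, 0.237% in TG_EE than in WT_EE and 0.079% in TG_ELS than in WT_ELS. The 6 genes were those called lower in all 3 comparisons, which is 0.0474% of the genes tested. The fitted TG/WT log2 fold change averaged over environments was -1.91 (SE 0.13) for ENSRNOG00000004179, -1.78 (SE 0.13) for ENSRNOG00000014296 and -0.63 (SE 0.05) for ENSRNOG00000019630. It was -0.53 (SE 0.07) for ENSRNOG00000032490, -0.46 (SE 0.04) for ENSRNOG00000016306 and -0.44 (SE 0.05) for ENSRNOG00000005335.

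The choice of the set had a threshold, and the nearest genes on both sides had similar values. Just inside it, ENSRNOG00000005335 had fitted log2 fold changes of -0.55 in SE, -0.38 in EE and -0.40 in ELS, the last with the largest adjusted p of the set. Just outside it, ENSRNOG00000022686 had -0.39 in SE, -0.25 in EE and -0.32 in ELS and missed the minimum fold change in EE. In all, 5 further genes were lower in all 3 comparisons and called in 2 of them.

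Group means and the fit gave different sizes of the loss in some environments. For ENSRNOG00000032490 in SE, the log2 ratio of group means was -0.24, whereas the fit with surrogate variables gave -0.53 (SE 0.13). In EE the order was turned, with -0.68 from the means and -0.46 (SE 0.12) from the fit. For ENSRNOG00000005335 in SE the corresponding values were -0.34 and -0.55 (SE 0.10). The widest gap was that of ENSRNOG00000004179 in ELS, with -1.61 from the means and -2.12 (SE 0.24) from the fit. By the means the loss of ENSRNOG00000004179 was largest in EE and smallest in ELS, and by the fit largest in ELS and smallest in EE. For ENSRNOG00000014296 in SE the means gave -1.66 and the fit -2 (SE 0.24). ENSRNOG00000016306 and ENSRNOG00000019630 differed between both measures by at most 0.1 in any environment. Without surrogate variables in the fit, ENSRNOG00000005335 and ENSRNOG00000032490 were called in none of the 3 comparisons, and the calls of the other 4 genes stood.

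**Figure D2:**
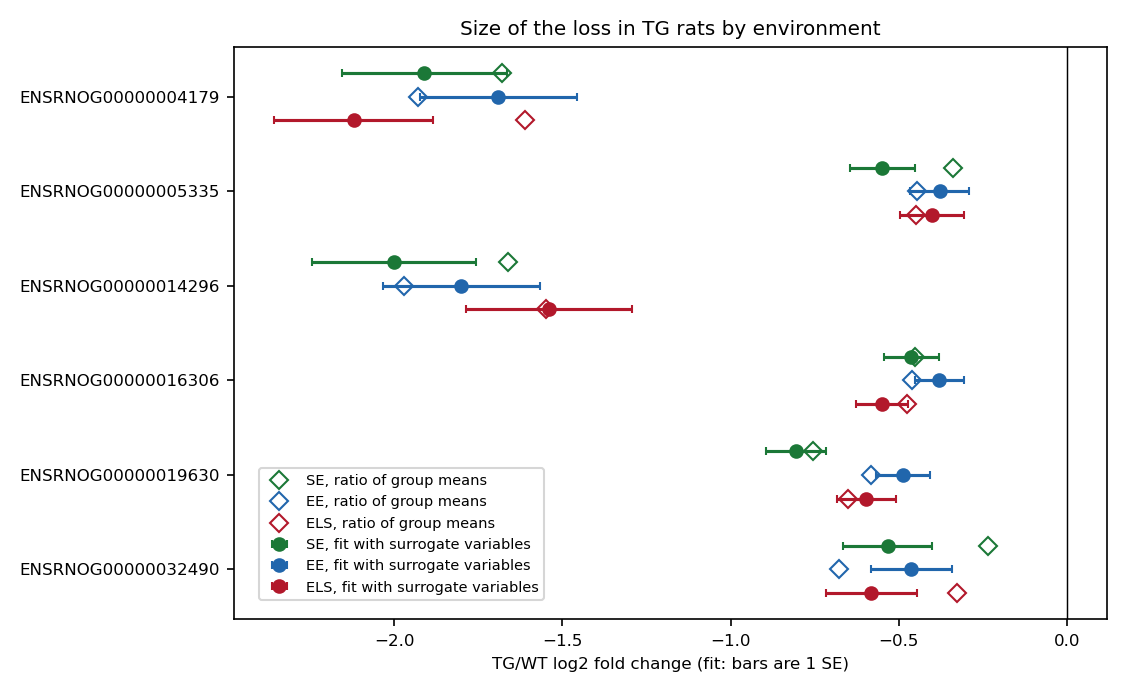
TG/WT log2 fold change (horizontal axis) of each gene (vertical axis) in SE (green), EE (blue) and ELS (red). Filled circles are the fit with surrogate variables with bars of 1 standard error, open diamonds are the log2 ratio of group means, and all values lie left of 0. ENSRNOG00000004179 and ENSRNOG00000014296 stand apart from the others at -1.5 or lower, and for ENSRNOG00000032490 in SE the diamond at -0.24 and the circle at -0.53 lie far apart.

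With those measures the loss could be set side by side between environments. The fitted TG/WT log2 fold change of ENSRNOG00000019630 was -0.81 (SE 0.09) in SE, -0.49 (SE 0.08) in EE and -0.60 (SE 0.09) in ELS, so that it was smaller by 0.32 (SE 0.13) in EE and by 0.21 (SE 0.12) in ELS than in SE. For ENSRNOG00000014296 it was -2 (SE 0.24) in SE, -1.80 (SE 0.23) in EE and -1.54 (SE 0.25) in ELS, with a difference between ELS and SE of 0.46 (SE 0.34). For ENSRNOG00000004179 it was -1.91 (SE 0.25) in SE, -1.69 (SE 0.23) in EE and -2.12 (SE 0.24) in ELS. The differences of EE or ELS from SE were within 0.22 for the other 4 genes. These differences are built from the comparisons that chose the set and are given without a test.

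Environment itself was not used to choose the genes and was tested in the same fit. Comparisons within WT or TG rats, however, share groups with those that chose the genes, so their p-values are not independent of the choice. Comparisons over both genotypes average WT and TG rats and do not use the difference between them. None of the 6 genes was called between environments, neither in WT rats, in TG rats nor over both genotypes. In the background, 0% of genes were called by edgeR in 6 of the 7 environment comparisons and 0.0079% for EE against SE over both genotypes. At an unadjusted p under 0.05, 1 of the 6 genes passed for WT_ELS against WT_SE (6.14% of all genes), for TG_EE against TG_SE (3.05%), and over both genotypes for ELS against SE (6.29%) and for EE against ELS (5.73%). None passed for WT_EE against WT_SE (6.02% of all genes), TG_ELS against TG_SE (4.13%) or EE against SE over both genotypes (4.8%). DESeq2 with the same surrogate variables also called 0 of the 6 genes in the 7 comparisons.

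The gene with the largest environment estimates was ENSRNOG00000004179, which also had the lowest mean raw count of the 6. Averaged over both genotypes it was higher in ELS than in SE by 0.62 on the log2 scale (SE 0.17, edgeR quasi-likelihood unadjusted p = 0.000855 and Benjamini-Hochberg adjusted p = 0.632). The ELS/SE estimate was 0.73 (SE 0.22) within WT rats and 0.51 (SE 0.25) within TG rats, and the adjusted p was 0.636 and 1. In the plain group means this gene stood at 140.2 in WT_ELS against 114.7 in WT_SE rats, and at 46.07 in TG_ELS against 35.67 in TG_SE rats. Over the alternatives to the fit the ELS/SE estimate over both genotypes ranged from 0.31 to 0.62 and its adjusted p from 0.307 to 0.646. The difference was therefore not detectable over 12657 genes.

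ENSRNOG00000019630 was higher in TG_EE than in TG_SE rats by 0.24 (SE 0.09, edgeR unadjusted p = 0.014, adjusted p = 1). The mean levels were 178.5 and 162.3 normalized counts, and the groups overlapped. Both groups also entered the comparisons that chose the gene. For the 5 genes other than ENSRNOG00000004179, the estimates over both genotypes lay between -0.25 and 0.16 for EE against SE and between -0.18 and 0.13 for ELS against SE, with standard errors between 0.05 and 0.17.

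**Figure D3:**
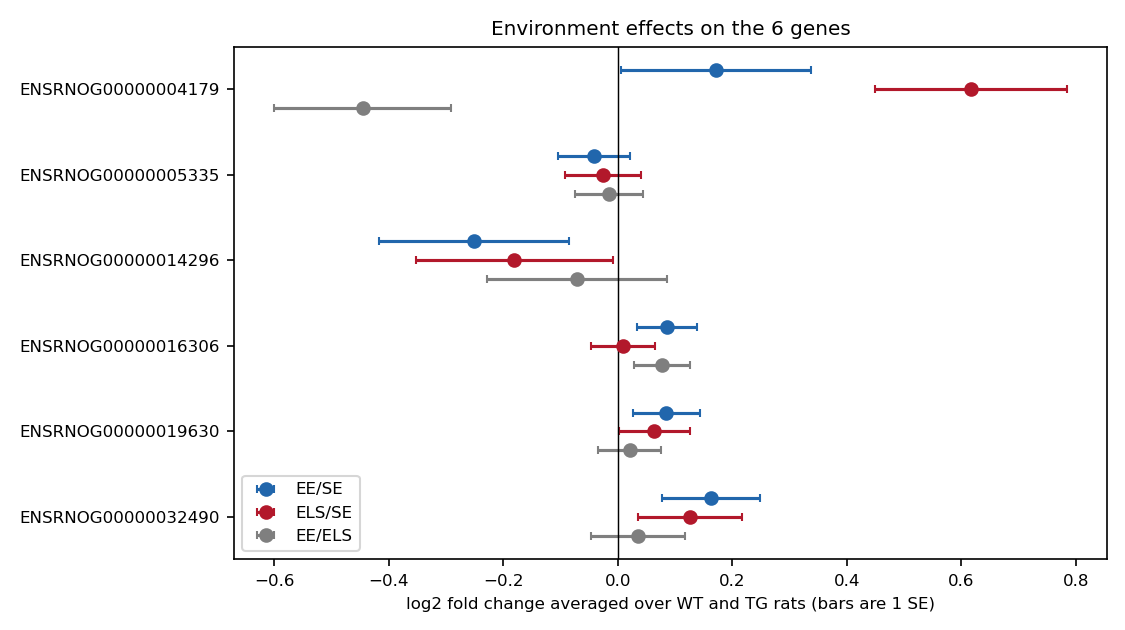
Environment effects on each gene (vertical axis) as the log2 fold change averaged over WT and TG rats (horizontal axis), for EE against SE (blue), ELS against SE (red) and EE against ELS (grey). Points are estimates of the edgeR fit and bars are 1 standard error. ENSRNOG00000004179 has the points farthest from 0, at 0.62 for ELS against SE and -0.45 for EE against ELS, and no point passed the threshold after adjustment.

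The spread over all rats entered the choice of the genes through the adjusted p, whereas the ratio of the spread between genotypes was not a criterion. On the log2 scale and after the mean of each group was removed, ENSRNOG00000004179 had an SD of 0.34 among 18 WT rats and 0.64 among 18 TG rats. The ratio of 1.88 passed a two-sided permutation test that exchanged rats between genotypes within environments (p = 0.00658, adjusted over the 6 genes p = 0.0395). Counting error alone would give SDs of 0.13 and 0.27, and the SDs beyond it were 0.32 in WT and 0.59 in TG rats. Within runs of library numbers, meaning after removal of each run's mean over both genotypes, the ratio was 1.12 and did not pass (adjusted permutation p = 0.599). Run differences peculiar to 1 genotype remained in these values, so 1.12 is not the ratio of spreads within runs of each genotype. The call was also lost when any 1 of 5 TG rats was left out, namely TG_EE replicate 3, 4 or 6 or TG_ELS replicate 4 or 5 (adjusted permutation p = 0.101 to 0.202). Without WT_EE replicate 6, the WT rat with the highest level of this gene, the ratio was 3.16 (adjusted permutation p = 6e-05, the smallest that the permutations can give). Part of the wider spread in TG rats thus lay between runs, as the TG means of this gene were 22.18 to 36.1 in runs 1 to 4 and 60.49 and 51.15 in runs 5 and 6.

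For the other 5 genes the SD ratio of TG to WT lay between 0.91 and 1.3, and none passed the test at 0.1. ENSRNOG00000019630 had the smallest SDs of the set, 0.15 in WT and 0.19 in TG rats, and ENSRNOG00000016306 had 0.16 and 0.19. ENSRNOG00000014296 was about as variable in WT rats (0.47) as in TG rats (0.43), and ENSRNOG00000032490 had 0.34 and 0.32. For ENSRNOG00000014296 counting error alone would give 0.14 in WT and 0.25 in TG rats. Its SDs beyond counting were 0.45 and 0.35, and their ratio was not tested. Compared with genes of similar level, the biological coefficient of variation of ENSRNOG00000004179 was 1.72 times the trend, at percentile 96.3 of all genes, and that of ENSRNOG00000014296 1.55 times, given as a description since this measure entered the adjusted p. For ENSRNOG00000032490 it was 1.36 times and for ENSRNOG00000019630 0.759 times the trend.

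From rat to rat, the correlations among the 6 genes were of both signs. After the group means were removed, the 15 pairwise correlations had a median Pearson r of -0.113 among 18 WT rats, with 6 of 15 above 0, and of 0.146 among 18 TG rats, with 10 above 0. Within runs of library numbers the median was 0.0813 in WT rats, with 10 of 15 above 0, and 0.0474 in TG rats, with 8 above 0, so that both the sign in WT rats and the order of the genotypes turned. The 2 genes with the largest losses, ENSRNOG00000004179 and ENSRNOG00000014296, had r = -0.31 (rho = -0.205) in WT and r = 0.398 (rho = 0.331) in TG rats, and neither passed the permutation test (p = 0.301 and p = 0.14, adjusted p = 0.645 and 0.467). Of 30 correlations tested over both genotypes, 3 had an adjusted p of at most 0.1 by Pearson r. By Spearman rho, 2 in WT rats and 2 in TG rats had one.

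Among WT rats, ENSRNOG00000005335 and ENSRNOG00000014296 varied together (r = 0.754, permutation p = 0.00091, adjusted p = 0.0273, and rho = 0.728, permutation p = 0.00101, adjusted p = 0.0302). Without the 2 rats farthest from the median of ENSRNOG00000005335, r was 0.67. The same pair among TG rats had r = 0.582 (permutation p = 0.051, adjusted p = 0.306) and rho = 0.707 (permutation p = 0.00403, adjusted p = 0.0302). Whether the correlation differed between genotypes was not tested. Within runs of library numbers r was 0.543 in WT and 0.537 in TG rats, and the call was lost in WT rats (adjusted permutation p = 0.199).

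ENSRNOG00000005335 also varied with ENSRNOG00000032490 among WT rats (r = 0.704, permutation p = 0.00214, adjusted p = 0.0321, and rho = 0.678, permutation p = 0.00399, adjusted p = 0.0302). The value was 0.53 without the 2 rats farthest from the median, and among TG rats r was 0.265. Among TG rats, ENSRNOG00000004179 and ENSRNOG00000032490 correlated with r = 0.698 (permutation p = 0.00397, adjusted p = 0.0397) and rho = 0.707 (permutation p = 0.00353, adjusted p = 0.0302), and r was 0.635 without the 2 farthest rats. Within runs these r were 0.542 and 0.525, and neither passed (adjusted permutation p = 0.199 for both). The first lost its call without WT_ELS replicate 1 (r = 0.604, adjusted permutation p = 0.127), and the second without TG_SE replicate 1, TG_ELS replicate 4 or TG_ELS replicate 5 (r = 0.617 to 0.663, adjusted permutation p = 0.123 to 0.167). ENSRNOG00000016306 ran the other way from ENSRNOG00000005335 among TG rats, with r = -0.622 (rho = -0.517, permutation p = 0.0169 for r and 0.0571 for rho, adjusted p = 0.127 and 0.285), which did not pass after adjustment.

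**Figure D4:**
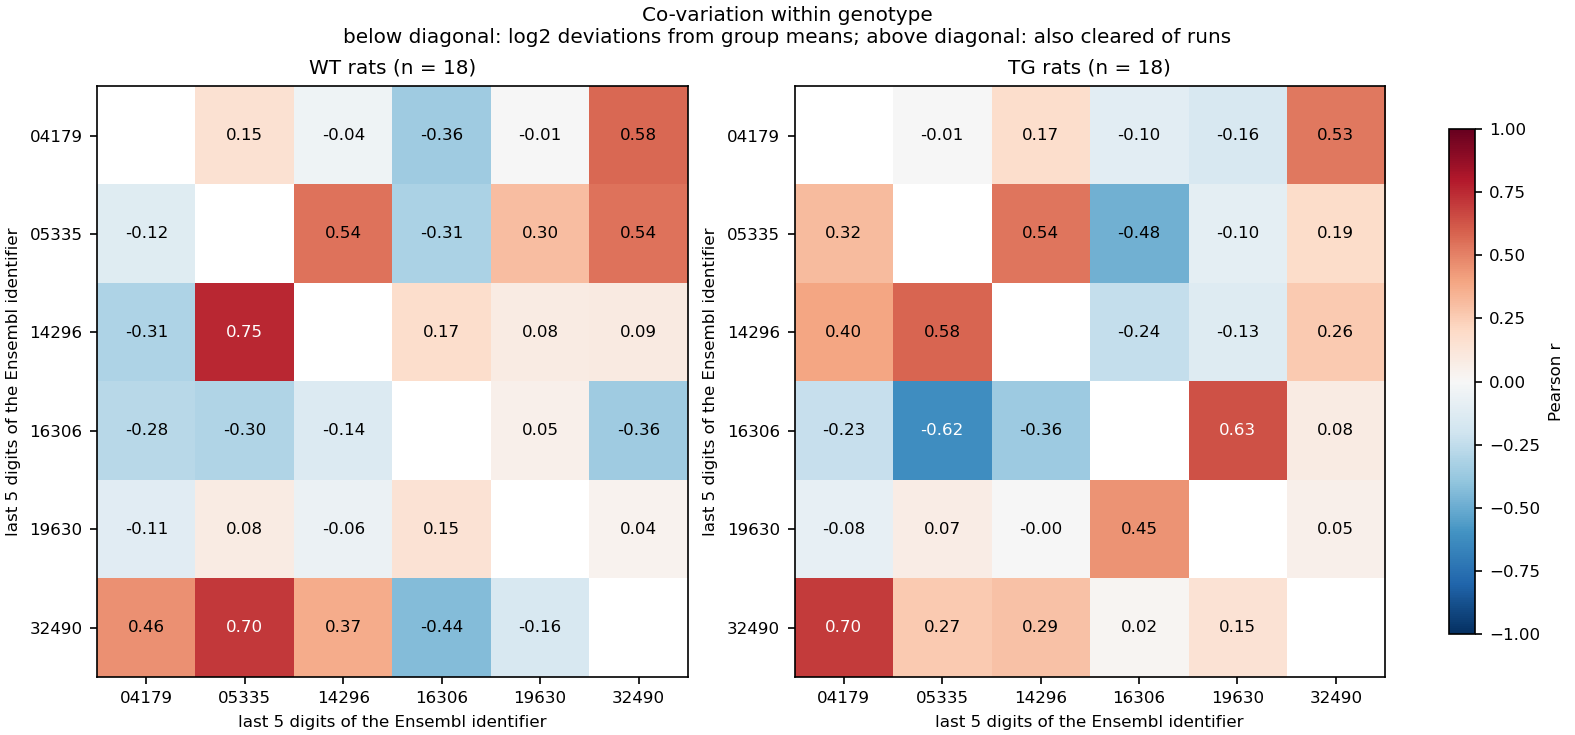
Pearson r between pairs of genes among 18 WT rats (left) and 18 TG rats (right), with genes on both axes given by the last digits of their identifiers and the colour scale running from -1 (blue) to 1 (red). Below the diagonal, log2 levels were freed of group means, and above it also of the means of runs of library numbers, taken over both genotypes. The strongest cells below the diagonal are 0.75 and 0.70 in WT and 0.70 in TG rats, and each has a paler partner above the diagonal.

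Levels of several of the genes differed between runs of library numbers, whose nature the labels do not give. With runs as covariate in place of surrogate variables, 30.1% of all genes differed between the 6 runs at an adjusted p of at most 0.1 in edgeR. Among the 6 genes this held for ENSRNOG00000005335 (adjusted p = 0.0305), ENSRNOG00000032490 (adjusted p = 0.0513), ENSRNOG00000004179 (adjusted p = 0.0692) and ENSRNOG00000014296 (adjusted p = 0.081), but not for ENSRNOG00000016306 (adjusted p = 0.373) or ENSRNOG00000019630 (adjusted p = 0.615). The runs held 40.6%, 40.5%, 39.9% and 28.2% of the within-group variance of the first 4 genes, beside a median of 27% over all genes. The 4 genes that differed between runs include all those in the 3 pairs above.

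Run by run, the mean of ENSRNOG00000014296 in WT rats was 88.75, 95.1, 125.5, 165.8, 172 and 109.3 normalized counts, each over 3 rats. In TG rats it stayed between 33.27 and 47.62. ENSRNOG00000005335 was highest in run 5 in both genotypes, at 394.1 in WT and 263.4 in TG rats. In every run the TG mean of each of the 6 genes was below the WT mean, and the narrowest gap in these means was that of ENSRNOG00000032490 in run 2, with 153.6 in TG and 167.1 in WT rats.

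**Figure D5:**
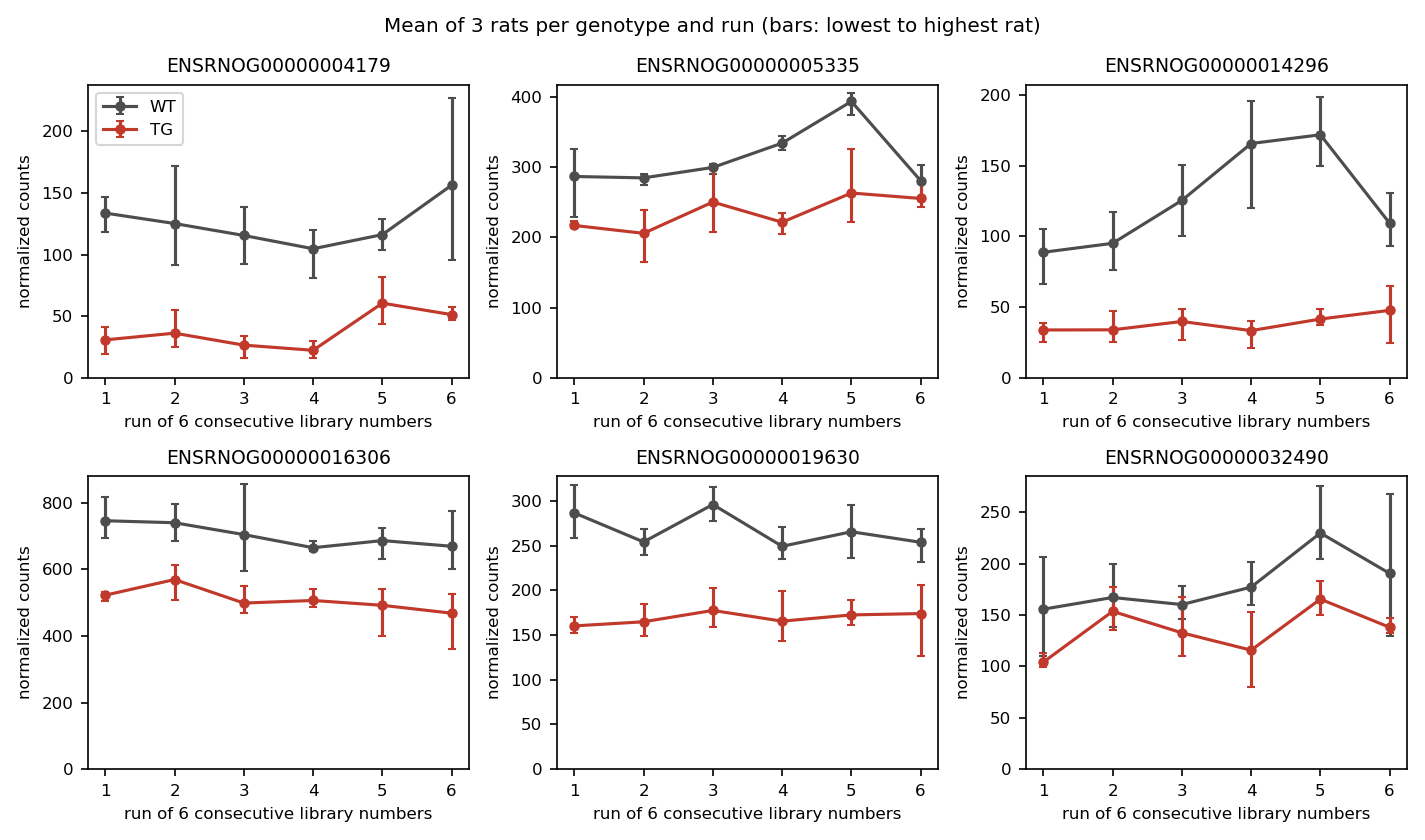
Mean normalized counts (vertical axis, linear and starting at 0) of 3 WT rats (grey) and 3 TG rats (red) in each run of 6 consecutive library numbers (horizontal axis), with bars from the lowest to the highest rat. Red means lie below grey means in every panel and run, from which nothing is read since the genes were chosen for lower levels in TG rats. The WT means of ENSRNOG00000005335 and ENSRNOG00000014296 peak in run 5 at 394.1 and 172.

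Over all 36 libraries, with group means removed, the place of the members among all genes was described by how strongly they correlated with one another. ENSRNOG00000005335 ranked 35 among the 12656 other genes by its r of 0.671 with ENSRNOG00000014296, which in turn ranked 137 for ENSRNOG00000005335. ENSRNOG00000032490 ranked 85 by its r of 0.582 with ENSRNOG00000004179, which in turn ranked 248 for ENSRNOG00000032490. ENSRNOG00000005335 had an r of 0.489 with ENSRNOG00000032490 and of -0.474 with ENSRNOG00000016306. By that negative r, ENSRNOG00000016306 ranked 12077 for ENSRNOG00000005335, and ENSRNOG00000005335 ranked 12107 for ENSRNOG00000016306. ENSRNOG00000016306 and ENSRNOG00000019630 had an r of 0.331. The remaining 4 correlations of ENSRNOG00000019630 with members lay between -0.0888 and 0.0763. Between 196 and 799 genes had an r of at least 0.5 with a given member, and these genes are not named since they have no symbol. All points share libraries, depth and runs, so these values are a description.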

How the data were processed

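Striatal RNA-seq data of 36 male rats were used, with the 6 groups of 6 rats taken from the genotype and environment in the labels. The authors aligned reads with STAR 2.5.2b to the Ensembl rat genome v87 to which the sequence of the human transgene had been added, and deposited 1 table of raw, not normalized counts for each gene and sample. The program that counted reads per gene and its use of strand are not given in the sources used here, and labels and methods differ on read length, RNA amount and depth.

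Analysis was done in R 4.3.3 with sva 3.50.0, edgeR 4.0.16, DESeq2 1.42.0 and limma 3.58.1. Genes whose raw counts averaged 50 or more (12657 of 23965) entered an edgeR quasi-likelihood fit of all libraries, with TMM scaling, a mean for each group and, from svaseq, 5 surrogate variables (number from num.sv, seed 1). Calls needed a p adjusted by Benjamini-Hochberg over all genes that was no higher than 0.1, and a log2 fold change no smaller than 0.3 in size. Correlations and SDs used log2 CPM (prior count 2) with group means removed and 100000 permutations within environments. Values within runs also had the mean of each run removed, taken over WT and TG rats together, so run differences peculiar to 1 genotype remained. The procedures were tested on simulated data. The totals of 9895073 to 19284439 counts per library limit precision mainly for low genes.

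The members, the gene lists and the tests were chosen with earlier results of these data known. The rule for naming genes was each member, the nearest genes inside and outside the threshold, the most similar genes and listed genes. Lists of pathway genes and cell type markers, the most similar genes and *Htt* need symbols, which the tables do not pair with these identifiers. Only identifiers of members, the nearest genes and the gene with the largest rise are therefore given. Alternatives were 0, 1 or 2 surrogate variables, runs of 6 or pairs of consecutive library numbers as covariate, DESeq2 with and without surrogate variables, its size factors in edgeR, 2 other count filters, other thresholds, a fit of 2 groups alone, and each library left out. Those for the spread, the test of runs, and the choice of the gene with the largest rise were added after the data were seen.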

Additional observations from a re-analysis of the deposited data

Results flagged for a closer look

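In 36 groups of 6 rats, formed by 6 genes and 6 groups, the highest or lowest rat was compared with its nearest neighbour, and 2 stood apart by a larger share of the group's range than Dixon's critical value. Chance alone flags about 1 in 20 groups. The first was ENSRNOG00000004179 in WT_EE rats, where 1 rat (replicate 6) had 227.6 normalized counts and the next 118. Without this rat the fitted TG/WT log2 fold change of ENSRNOG00000004179 in EE was -1.56 (SE 0.25) in place of -1.69. The second was ENSRNOG00000005335, also in WT_EE rats, where another rat (replicate 5) had 406.2 normalized counts and the next 324.5. Without it the fitted TG/WT log2 fold change of ENSRNOG00000005335 in EE was -0.42 (SE 0.10) in place of -0.38. Replicate 5 and 6 of WT_EE also had the 2 highest levels of ENSRNOG00000032490 in that group, 275.6 and 268.3.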

How the results depend on the processing

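All 6 genes were lower in TG rats in each environment under every alternative that gave an estimate, but the number called changed. In all 3 comparisons at once, ENSRNOG00000019630 was called in 13 of 13 alternatives, ENSRNOG00000016306 in 12 of 13, ENSRNOG00000004179 and ENSRNOG00000014296 in 11 of 11, ENSRNOG00000005335 in 4 of 13 and ENSRNOG00000032490 in 2 of 12. In 36 fits that each left out 1 library, the first 4 were called in all 3 comparisons in 35 or 36 fits, ENSRNOG00000005335 in 15 and ENSRNOG00000032490 in 5. These comparisons chose the genes, and counts over all genes are not set beside them. The values show only which calls depended on the processing.

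The number called lower in TG_EE fell from 6 to 3 under DESeq2 with the same surrogate variables, which gave the other 3 genes no adjusted p. A filter of at least 50 counts in every library left 4 of the 6 genes and called 3 in SE and 3 in EE. A fit of the 2 groups alone, without surrogate variables, called 3 in SE. When 1 library was left out, the count for SE was 5 or 6, that for ELS 4 to 6 and that for EE 3 to 6, and the value of 3 came without TG_EE replicate 6. Over all genes, 39 were called in EE under DESeq2 with the same surrogate variables. The filter called 27 in SE and 23 in EE, and the fit of 2 groups 13 in SE. Without TG_EE replicate 6, 28 of all genes were called in EE. For the other settings, counts over all genes are not given here. Whether the 6 genes changed more than genes in general was not tested. None of the 6 genes was called between environments in any of the 11 alternatives or 36 fits.

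The SD ratio of ENSRNOG00000004179 was 1.12 within runs and 1.4 after removal of the surrogate variables (adjusted permutation p = 0.599 and 0.399), and 1.77 to 3.16 when 1 library was left out, the highest without WT_EE replicate 6. It did not pass in 5 of these 36 cases, without TG_EE replicate 3, 4 or 6 or TG_ELS replicate 4 or 5 (adjusted permutation p = 0.101 to 0.202). That of ENSRNOG00000019630 was 1.63 within runs (adjusted permutation p = 0.075) and passed there. The 3 correlations that passed by Pearson r lost their call within runs and after removal of the surrogate variables, where r was 0.386, 0.236 and 0.279. ENSRNOG00000005335 and ENSRNOG00000014296 among TG rats had passed by rho alone. Their r was 0.537 within runs and 0.556 after removal of the surrogate variables, and their rho in these settings is not given here. The median r of WT rats was -0.113 to 0.081 over the alternatives and that of TG rats 0.019 to 0.148. The cause of these changes was not tested. The labels give no replicate numbers that groups share. With pairs of consecutive library numbers as covariate, 4 of the 6 genes were called in SE, 5 in EE and 4 in ELS. Counts over all genes in that fit are not given here. Low raw counts limit ENSRNOG00000004179 and ENSRNOG00000014296 in TG rats.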

Other observations

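The gene with the largest rise in TG rats, ENSRNOG00000010867, was chosen after its values were seen and set against the 6 genes among 18 TG rats with group means removed. The size of its rise is not given here. The paper left out *Msantd1*, whose change it holds to be a likely result of its sequence being carried on the transgene construct. Whether ENSRNOG00000010867 is that gene cannot be told here, since no symbol is paired with it. Whether reads of ENSRNOG00000010867 came from the transgene was not tested. The r of ENSRNOG00000010867 with ENSRNOG00000016306 was -0.602 (rho = -0.404, permutation p = 0.0232 for r and 0.141 for rho, adjusted over 6 correlations p = 0.139), and r was -0.523 without the 2 rats farthest from the median and -0.576 within runs. For ENSRNOG00000019630, r was -0.533 (rho = -0.424, permutation p = 0.0626 for r and 0.134 for rho, adjusted p = 0.188). The other 4 genes had r between -0.262 and 0.167, and no correlation of the 6 passed at 0.1 after adjustment.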
